A study of Mus musculus and Oryctolagus cuniculus and Sus scrofa with 20 samples.

Results

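The miRNAs described here are miR-322-5p, miR-322-3p, miR-503-5p and miR-351-5p, which are cut from 3 neighbouring hairpins on the mouse X chromosome. Reads of 18 to 26 nt were counted for a miRNA when their first 18 nt equalled those of the mouse mature sequence. The 4 miRNAs are 4 of 1660 entries matched in this way, an entry being a mature mouse miRNA or several that share their first 18 nt. The members were chosen by their read levels across these same libraries, so levels and changes are given as a description. The only test made is on rabbit age, among all entries, and it does not correct for that choice.

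The series holds 20 small RNA libraries, each the only library of its group. A mouse germ cell series came from wild type C57BL/6 males: cultured spermatogonial stem cells (SSCs), pre-leptotene and leptotene spermatocytes of postnatal day 9, zygotene spermatocytes of day 13, pachytene spermatocytes and round spermatids of day 25, and mature sperm. Whole testes came from wild type rabbits aged 10, 30, 60, 70, 80, 90, 110 and 180 days, with a spike-in added to the RNA. Wild type adult pig and wild type adult rat testes gave 1 library each. A second set of mouse SSCs, from day 15 males of the C57BL/6 x DBA2 F1 background with an actin-EGFP transgene, held a wild type control and lines lacking miR-741 made with TALEN or with CRISPR nucleases. SSC colonies were plated on mouse embryonic fibroblasts as feeders, and knockout lines came from single picked colonies. The culture text is shared by all samples and describes F1 cells only, while the SSCs of the stage series are labelled C57BL/6. Nothing in the labels says whether a library came from 1 or several animals.

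The miR-322 hairpin is the rodent counterpart of human miR-424, and miR-503 lies beside it in both species. A hairpin can give a mature miRNA from each of its arms (5p and 3p), and bases 2 to 8 of the mature strand, the seed, pair with target mRNAs. The seed of miR-322-5p is that of miR-15 and miR-16, a family known to hold back cyclins and other cell cycle genes, and miR-503-5p has a closely related seed. miR-351-5p has the seed of miR-125, and in rodents it sits in the same cluster.

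In GRCm38 the hairpins lie on the minus strand of chromosome X, Mir322 at chrX:53054255-53054349, Mir503 at chrX:53053984-53054054 and Mir351 at chrX:53053255-53053353. They span 1.095 kb, and with Mir542, Mir450-2, Mir450-1 and Mir450b downstream the 7 hairpins span 6.353 kb. None of the 7 overlaps another annotated gene. The lincRNA Gm28730 lies among them, and the nearest protein-coding genes are Hprt and Plac1. Over the 7 hairpins 12 entries could be counted, the 4 described here and 8 partners.

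The mature sequences are shown because shared seeds decide which other miRNAs they can be compared with. They are RefSeq sequences of GRCm38.p6, written 5′ to 3′ with the seed in capitals.
miR-322-5p: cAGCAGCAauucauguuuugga
miR-16-5p: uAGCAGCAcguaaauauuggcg
miR-503-5p: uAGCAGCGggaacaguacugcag
miR-351-5p: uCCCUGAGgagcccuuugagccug
miR-125b-5p: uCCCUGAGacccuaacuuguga
miR-322-3p: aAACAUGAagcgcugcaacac
miR-322-5p shares its seed with 10 entries, itself included, and miR-351-5p with 5, while the seeds of miR-503-5p and miR-322-3p were found in no other entry of the table.

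Libraries held 597732 (CRISPR) to 25908109 (mature sperm) reads, of which 1.38% (pachytene) to 53.3% (rabbit day 10) matched miRNA entries. miRNA reads numbered 314112 in pachytene spermatocytes and 491998 in round spermatids, against 3555236 or more in the other mouse stages. Levels are reads per 1000000 miRNA reads (rpm). Ranges in brackets are exact 95% intervals (Poisson for levels, Clopper-Pearson for shares), which cover counting error alone because reads carried no molecular identifiers. The late germ cell markers miR-34b-5p and miR-449a-5p summed to 5925 rpm in pachytene spermatocytes and 6718 rpm in round spermatids, against 1.81 rpm in pre-leptotene spermatocytes. The table entries took up 54.3% of the reads that matched any annotated mouse miRNA hairpin in rat, 65.4% in pachytene spermatocytes and 66.9% in round spermatids, against 75.2% to 91.8% in the other libraries, so levels per miRNA read and per hairpin read differ most in those 3. Mature sperm held 16641 rpm of epithelial markers, the most among the mouse stages. Its fibroblast or stromal markers summed to 99780 rpm, of which 98645 rpm was miR-10b-5p. The 3 others were lower in sperm than in SSCs, such as miR-199a-5p at 544 against 9992 rpm. Each of the 3 was higher in sperm than in round spermatids, where miR-199a-5p stood at 154 rpm. Blood markers summed to 1274 rpm in sperm, also the most among the mouse stages. The part of other cells in the sperm levels was not tested. In the knockout set miR-741-3p stood at 171011 rpm in the control and at 11.7 rpm (3 reads) and 25.4 rpm (5 reads) in the TALEN and CRISPR lines.

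In the mouse germ cell series the cluster was a minor one, highest in zygotene spermatocytes and in cultured SSCs. miR-322-5p stood at 159 rpm in SSCs, at 22.01 and 14.5 rpm in the pre-leptotene and leptotene libraries of day 9, at 144 rpm in zygotene and 35.02 rpm in pachytene spermatocytes, and at 18.3 rpm both in round spermatids and in sperm. Its partner strand miR-322-3p was at 369 rpm in SSCs, at 82.6 and 85.0 rpm in the day 9 libraries, at 554 rpm in zygotene cells, and then at 38.2 rpm (pachytene), 20.3 rpm (round spermatids) and 30.7 rpm (sperm). Both strands of the hairpin thus had their 2 highest mouse stage levels in SSCs and zygotene spermatocytes. The intervals of miR-322-5p in those libraries overlapped (148 to 170 rpm and 133 to 156 rpm), and neighbouring ranks also overlapped among the 5 lower stages.

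miR-503-5p, the member with the unshared seed, stood at 153 rpm in SSCs, at 11.3 and 7.48 rpm in the day 9 libraries and at 72.2 rpm in zygotene spermatocytes. Its 1 read in pachytene spermatocytes and 2 in round spermatids gave 3.18 rpm (0.0806 to 17.7) and 4.07 rpm (0.492 to 14.7), which overlap the leptotene interval. In mature sperm it had 0 of 3555236 miRNA reads (0 to 1.04 rpm), where 3 reads would equal 0.844 rpm. miR-351-5p, the miR-125 seed member, was the most abundant in each of the 7 stages, with 370.2 rpm in SSCs, 229.6 and 180.4 rpm in the day 9 libraries and 1023 rpm in zygotene spermatocytes. It was at 86.0 rpm in pachytene spermatocytes, 46.7 rpm in round spermatids and 75.1 rpm in sperm. In SSCs its lead over miR-322-3p was within counting error (354 to 387 rpm against 353 to 386 rpm). With starts up to 2 nt away counted too, miR-322-3p led in SSCs, with 2633 reads against 1900. The 2 miRNAs then had 23 reads each in round spermatids. The 4 together made up 1051 rpm in SSCs and 1793 rpm in zygotene spermatocytes, and 89.4 rpm (44 reads) in round spermatids.

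**Figure D1:**
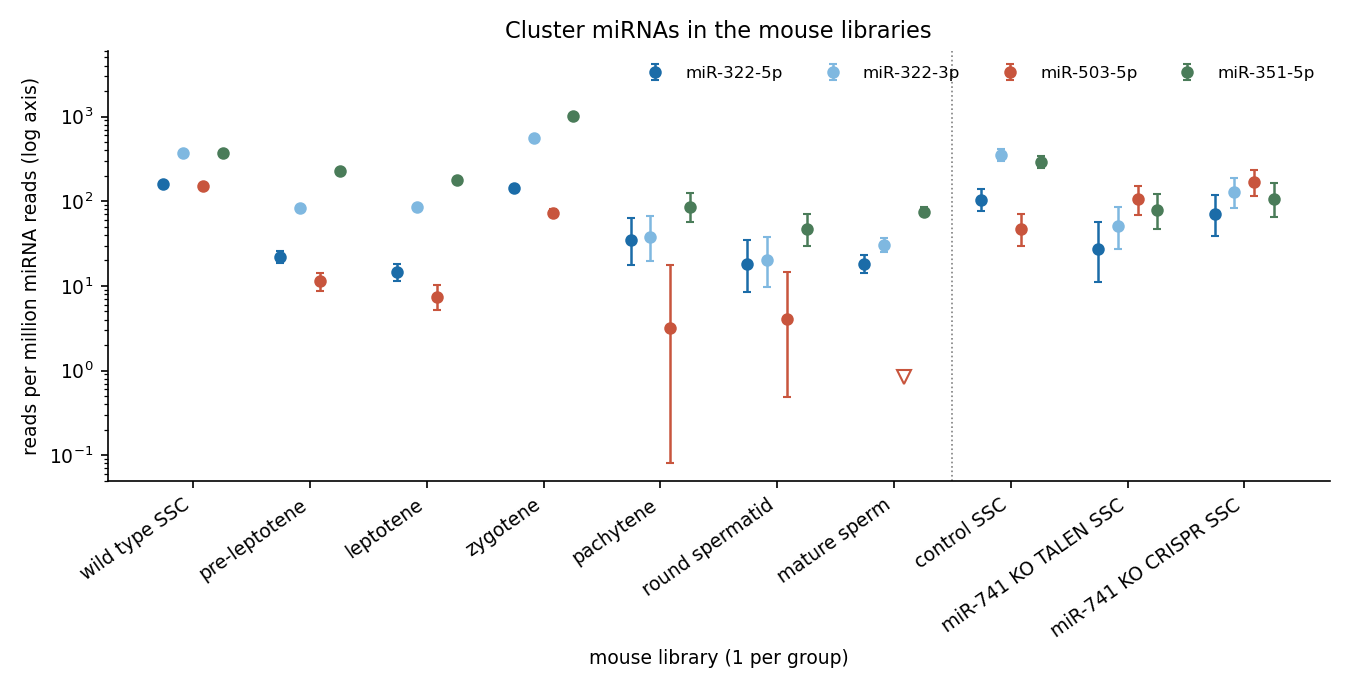
Level in rpm (log axis) of the 4 miRNAs in the 10 mouse libraries, with the stages left of the dotted line and the knockout set right of it. Points are single libraries with 95% Poisson intervals, and the open triangle marks the limit of 0.844 rpm for miR-503-5p in mature sperm. miR-351-5p is the highest point in each stage, and zygotene stands above its neighbours.

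Consecutive stages were compared by the log2 ratio of levels, and a change was counted at 4-fold. From SSCs to pre-leptotene spermatocytes 3 of the 4 miRNAs were over 4-fold lower, where 54.1% of the 333 entries reaching 100 reads in either library were as low and 3.60% were 4-fold higher. No member was 4-fold higher. The count of 3 lower came to 1 (miR-503-5p) per all reads and without the miR-506 family, and to 0 with TMM factors, where miR-503-5p was at −1.98. The median over all 333 was −2.30, and the 4 miRNAs had a median of −2.50, so their share was near the background. Set against that median, miR-503-5p stood at −1.45 and miR-351-5p at 1.61 on the log2 scale. With TMM factors, which scale libraries to a common bulk of miRNAs, miR-351-5p turned to higher (log2 1.08), as it did per all reads (0.18) and without the miR-506 family (0.41), and the sum of the 4 went to 0.17.

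From pre-leptotene to leptotene spermatocytes none of the 3 miRNAs with at least 100 reads in either library changed 4-fold, where 0.00% of 212 entries were lower and 0.472% higher. miR-322-5p had a log2 change of −0.60 (−1.04 to −0.17), and miR-322-3p had a log2 change of 0.04 (−0.15 to 0.23).

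From leptotene to zygotene spermatocytes the 4 miRNAs were all over 4-fold higher, where 11.3% of 239 entries were higher and 0.00% lower. miR-322-5p was 9.92-fold higher, a log2 change of 3.31 (2.95 to 3.69). miR-503-5p was 9.65-fold higher, a log2 change of 3.27 (2.77 to 3.81). miR-322-3p and miR-351-5p were 6.51-fold and 5.67-fold higher. The median over all entries was itself 0.71 higher, and relative to it the 4 miRNAs were 1.79 to 2.60 higher on the log2 scale. With TMM factors miR-322-3p (1.98) and miR-351-5p (1.78) were just short of 4-fold, as was miR-351-5p (1.87) with the miR-506 family left out of the base.

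Among the partners with at least 100 reads, miR-450b-5p was 5.04-fold and miR-503-3p 4.03-fold higher in zygotene spermatocytes. miR-542-3p and miR-450a-5p were 3.99-fold and 3.71-fold higher. All 4 thus moved the same way as the members, but 198 of all 239 entries were higher too, and 2 of the 4 partners were past 4-fold. The 16 X-linked entries outside this cluster and the miR-506 family had a median of 0.38, with 1 of 16 past 4-fold. Markers of other cells moved too: the summed Sertoli or gonadal markers, miR-202-5p and miR-202-3p, went from 153 to 3391 rpm with both detected in both libraries. The 4 countable fibroblast or stromal markers of 6 went from 22254 to 40991 rpm, mostly miR-10b-5p and each of them higher, the epithelial list from 312 to 757 rpm and the blood list from 9.77 to 26.4 rpm. The leptotene library came from day 9 and the zygotene library from day 13, so age and stage cannot be told apart. The part of other cells in the zygotene levels was not tested.

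From zygotene to pachytene spermatocytes the 4 miRNAs were all over 4-fold lower, where 13.4% of 247 entries were lower, 9.31% were higher and the median over all entries was −0.13. Counts fell from 640 to 11 reads for miR-322-5p, from 2455 to 12 for miR-322-3p, from 320 to 1 for miR-503-5p and from 4535 to 27 for miR-351-5p. miR-322-5p was 4.12-fold lower, with an interval that also holds changes under 4-fold (log2 −3.05 to −1.19). miR-322-3p was 14.5-fold lower (log2 −4.81 to −3.05) and miR-351-5p 11.9-fold lower (log2 −4.18 to −3.03). For miR-503-5p the single pachytene read gave a log2 change of −4.50 with an interval of −9.81 to −2.01.

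The 4 partners with at least 100 reads in either library were lower as well, as were 135 of all 247 entries. miR-450a-5p was 4.76-fold lower. miR-503-3p, miR-450b-5p and miR-542-3p, with 3, 3 and 7 pachytene reads, were 3.33-fold, 3.07-fold and 2.86-fold lower. The other 16 X-linked entries had a median of −0.20 in the same comparison, with 2 past 4-fold lower. Over the same step the Sertoli or gonadal markers went from 3391 to 464.8 rpm and the stromal markers from 40991 to 9111 rpm, while the late germ cell markers went from 16.7 to 5925 rpm. Their part in the lower levels was not tested. With all reads in place of miRNA reads as the base, each change at this step dropped by 4.39 on the log2 scale, the median over all entries included. miRNA reads were 28.9% of the zygotene library and 1.38% of the pachytene library.

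After pachytene none of the 3 miRNAs with more than 3 reads changed 4-fold in either step. None had 100 reads in pachytene spermatocytes or round spermatids. Between those libraries 13.2% of 129 entries were lower and 5.43% higher. Between round spermatids and mature sperm 20.1% of 204 entries were lower and 22.5% higher, and miR-351-5p had a log2 change of 0.68 (0.07 to 1.37). miR-450a-5p was the partner that stood out in round spermatids, at 148 rpm (73 reads) against 57.3 rpm (18 reads) in pachytene spermatocytes and 21.9 rpm in mature sperm.

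**Figure D2:**
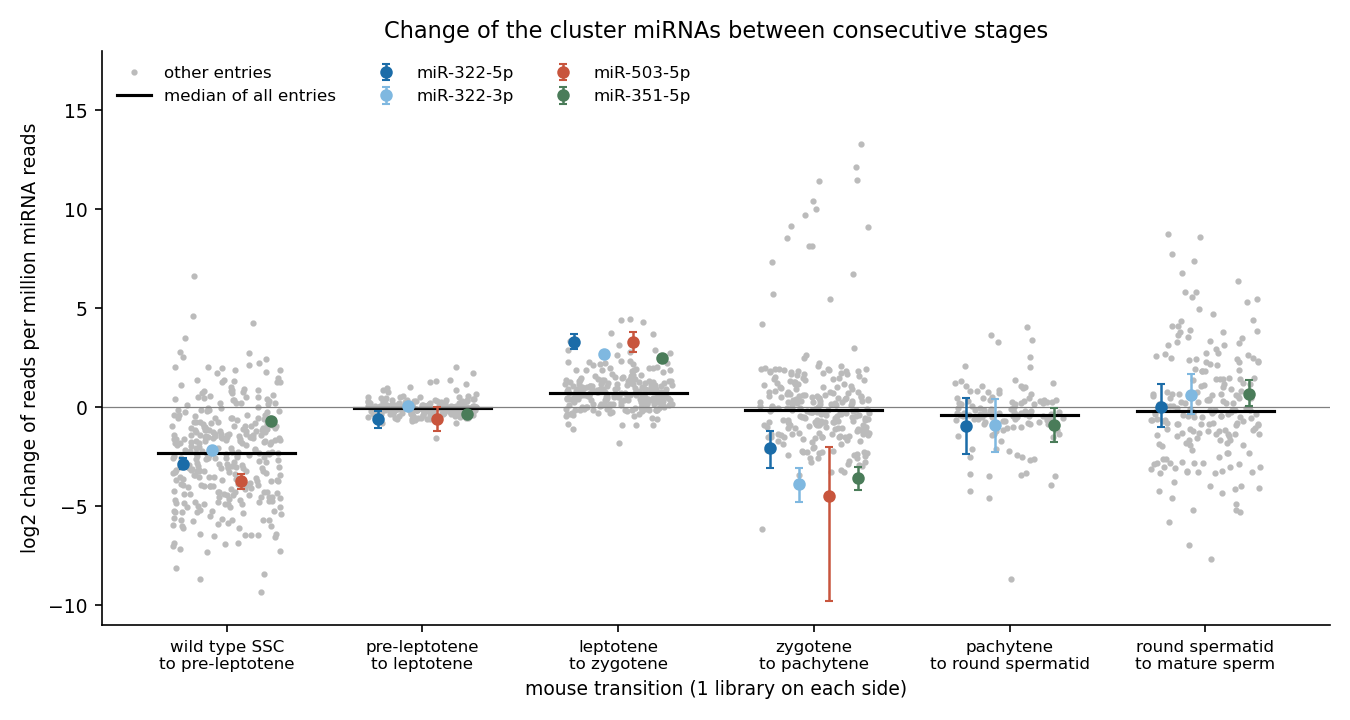
Log2 change of the level in rpm at each of the 6 mouse transitions, for the 4 miRNAs (coloured, with 95% counting intervals) and every other entry reaching 100 reads in either library (grey). The black lines are the medians over all entries, at −2.30 from SSCs to pre-leptotene and 0.71 from leptotene to zygotene, and the coloured points lie above the line at zygotene and below it at pachytene.

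The control SSCs of the knockout set and the SSCs of the stage series are separate libraries labelled with different strains, and strain and culture cannot be told apart. miR-322-3p stood at 354 and 369 rpm in them and miR-351-5p at 293 and 370.2 rpm. miR-322-5p was 1.52-fold lower in the control SSCs (105 rpm in place of 159), miR-503-5p 3.25-fold lower (47.0 rpm) and the partner miR-450b-5p 15.5-fold lower, with 3 reads. The 2 strands of miR-322 and miR-351-5p were thus closer between the cultures than miR-503-5p was.

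Between the miR-741 knockout lines and the control, a change was counted at 2-fold in the same direction in both lines. miR-322-3p (166 reads in the control, 13 in TALEN, 25 in CRISPR) and miR-351-5p (137, 20 and 21 reads) were lower in both, where 9.33% of 150 entries with at least 100 reads were lower and 9.33% higher. Their levels were 354, 50.7 and 127 rpm and 293, 78.0 and 107 rpm. The log2 changes were −2.80 (TALEN) and −1.48 (CRISPR) for miR-322-3p and −1.91 and −1.45 for miR-351-5p.

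miR-322-5p had 49, 7 and 14 reads (105, 27.3 and 71.2 rpm), and its change in the CRISPR line (log2 −0.56, interval −1.53 to 0.32) was within counting error. miR-503-5p went the other way in both lines, with 22, 27 and 33 reads, or 47.0, 105 and 168 rpm. Its log2 changes were 1.17 (0.30 to 2.05) and 1.84 (1.01 to 2.68), though it had too few reads to enter the 150. The partner miR-450b-5p was also higher in both, with 3, 11 and 15 reads. So members cut from hairpins within 1.095 kb of each other lay on opposite sides of this control in both lines. The SSCs of the stage series, also wild type, held 153 rpm of miR-503-5p and 99.6 rpm of miR-450b-5p. Neither miRNA was thus above both wild type cultures beyond counting error in either line.

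The same 2 lines held less of each of the 4 countable fibroblast, feeder or stromal markers, in sum 22134 rpm in the control, 7292 in TALEN and 9936 in CRISPR. Cultured stem cell markers stood at 1934, 2317 and 2821 rpm, epithelial markers at 1161, 2965 and 2130 rpm, and blood markers at 74.7, 191 and 229 rpm with miR-451a at 0 in each. Sertoli or gonadal markers had 1, 0 and 2 reads. Feeder cells are fibroblasts, and the part of feeder RNA in the lower levels of miR-322-3p and miR-351-5p was not tested. Each line is 1 library set against the same control library, so the lines do not replicate each other.

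In mouse and rat the 3p strand of miR-322 had more reads in every library, and in rabbit and pig the 5p strand had. The 5p strand made up 30.1% of the reads of both strands in SSCs (28.4% to 31.8%), 21.0% and 14.6% in the pre-leptotene and leptotene libraries, 20.7% in zygotene spermatocytes, 37.4% in sperm and 22.8% in control SSCs. In pachytene spermatocytes (47.8% of 23 reads) and round spermatids (47.4% of 19 reads) the intervals span 50%, as they do in the TALEN (7 reads against 13) and CRISPR (35.9%) lines. In rat testis it was 43.1% (37.5% to 48.9%), above each mouse stage up to zygotene.

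In rabbit and pig reads equal to the mouse 3p strand were near 0, at most 5 in any library, and the 3p strand had to be found by resemblance. This search was added after those zeros were seen. The most abundant rabbit read that resembles the 3p arm of the mouse hairpin, with at most 4 differing bases, was then counted like the others. It is set below against the mouse hairpin stretch that starts 2 nt before the reference start of miR-322-3p, with bases 2 to 8 in capitals.
mouse stretch: cAAAACATgaagcgctgcaaca
rabbit read: cAAAACGTgaggcgctgctata
Counted from 1 at the 5′ end of the mouse stretch, the substitutions are A7G, A11G, A19T and C21T. The first of them falls within bases 2 to 8.

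With this read as the 3p strand, the rabbit 5p strand made up 87.0% (day 10, 15878 reads against 2368) to 94.7% (day 90) of both strands. The pig value was 95.9% (94.0% to 97.3%, with 26 reads of the 3p strand). The rabbit and pig shares thus lay between 87.0% and 95.9%, and the mouse and rat shares between 14.6% and 47.8%. Mouse libraries are purified or cultured cells and the rat, rabbit and pig libraries whole testis, and the part of cell makeup in these shares was not tested.

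**Figure D3:**
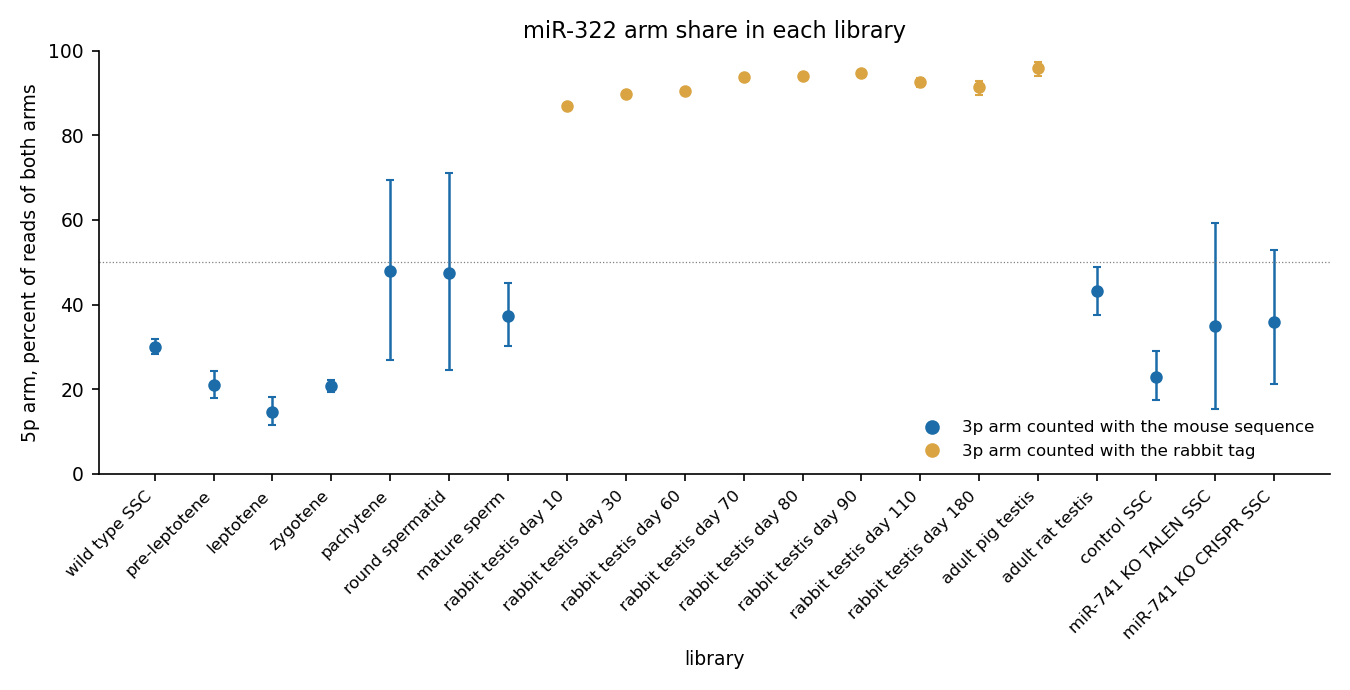
Share of the 5p strand among the reads of both miR-322 strands in each of the 20 libraries, with 95% Clopper-Pearson intervals. Blue points count the 3p strand by the mouse sequence and lie below 50%, and ochre points count it by the rabbit read and lie between 87.0% and 95.9%.

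The hairpins of the cluster differed in the strand with more reads. miR-351-5p made up 93.2% or more of its hairpin's reads in every mouse and rat library. miR-503-5p made up 86.7% in SSCs, 71.1% and 48.6% in the pre-leptotene and leptotene libraries and 69.4% in zygotene spermatocytes. In mature sperm miR-503-3p had 41 reads and miR-503-5p 0. miR-542 gave nearly its 3p strand alone, with 3 reads of the 5p strand against 359 in SSCs and a 5p share of 2.08% or less in each library with reads of either strand.

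The start of miR-322-3p varied, which shifts its seed. Reads that began 1 or 2 nt before the reference start were 28.1% of its 2633 reads in SSCs, 45.6% of 925 and 37.4% of 653 in the pre-leptotene and leptotene libraries, 26.5% of 3340 in zygotene spermatocytes, 38.4% in mature sperm and 23.3% in rat. The commonest forms in zygotene spermatocytes show the shift, with bases 2 to 8 in capitals.
reference start, 2208 reads: aAACATGAagcgctgcaaca
1 nt earlier, 446 reads: aAAACATGaagcgctgcaaca
2 nt earlier, 304 reads: cAAAACATgaagcgctgcaaca
All 3 end at the same base, 1 nt short of the RefSeq end. The rabbit read likewise starts where the longest of them does. Levels above count the reference start alone. With the earlier starts counted too, the 5p share of miR-322 fell to 24.3% in SSCs and 12.7% in pre-leptotene spermatocytes. miR-351-5p by comparison had 2.91% of its reads at other starts in sperm and 0.242% or less in the other libraries.

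The 3′ end of miR-322-5p carried T bases that the mouse hairpin does not encode. In pre-leptotene spermatocytes 114 of 134 reads (85.1%, 77.9% to 90.6%) ended in such a T tail, and in leptotene spermatocytes 48 of 70 (68.6%). The share was 45.5% in zygotene spermatocytes (291 of 640), 19.2% in SSCs (156 of 814), 29.2% in mature sperm (19 of 65), 20.4% in control SSCs (10 of 49) and 12.9% in rat (17 of 132). The shares of both day 9 libraries thus lay above those of SSCs and zygotene spermatocytes beyond their intervals. Pachytene spermatocytes, at 1 of 11 reads, and round spermatids, at 0 of 9, are too thinly read to compare. The template form and the tailed form are shown as read in pre-leptotene spermatocytes, with the added base in capitals.
16 reads: cagcagcaattcatgttttgga
108 reads: cagcagcaattcatgttttggaT
The pre-leptotene reads of miR-322-5p fell into 5 distinct sequences, and copies of one molecule cannot be told from separate molecules.

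Most miRNAs in these libraries carried the tail far less often. The median T tail share over entries with at least 100 reads, a comparison added after the tail was seen, was 3.92% in SSCs and 5.64% to 6.08% in the pre-leptotene, leptotene and zygotene libraries. In pre-leptotene spermatocytes 2 of 171 such entries had a share as high as miR-322-5p, itself included, and in SSCs 33 of 275 had. Of the partners, miR-542-3p, cut from the next hairpin downstream of Mir351, was tailed even more, at 64.1% in SSCs, 95.7% and 72.7% in the pre-leptotene and leptotene libraries and 74.2% in zygotene spermatocytes. miR-322-3p carried it in 9.93% of reads in SSCs, 3.87% in zygotene spermatocytes and 28.4% in sperm. miR-503-5p showed 0 of 69, 0 of 36 and 0 of 320 reads with a T tail in pre-leptotene, leptotene and zygotene spermatocytes. miR-351-5p was not scored for T tails, since its hairpin sequence was not used here.

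**Figure D4:**
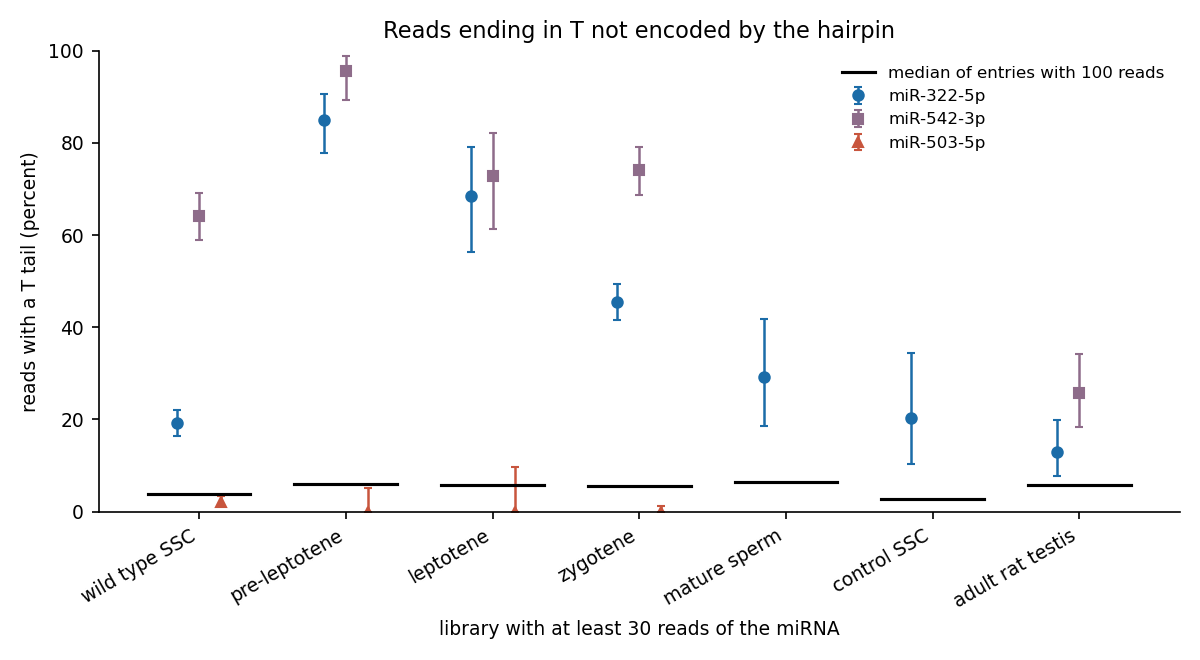
Share of reads that end in T bases not encoded by the mouse hairpin, with 95% Clopper-Pearson intervals, in libraries with at least 30 reads of the miRNA. Black lines mark the median over entries with at least 100 reads, which stay between 2.80% and 6.41%, while miR-322-5p reaches 85.1% and miR-542-3p 95.7% in pre-leptotene spermatocytes.

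miR-503-5p varied at its 3′ end in another way. Its commonest length was 24 nt in SSCs (33.4% of reads) but 19 nt in pre-leptotene (65.2%) and zygotene spermatocytes (41.2%), and 23 nt in each rabbit library. In SSCs 19.5% of its reads carried 1 or more A bases beyond the hairpin (16.8% to 22.5%). Zygotene spermatocytes held 14.1% (10.4% to 18.4%), an interval that overlaps that of SSCs. Such reads were 8 of 36 in leptotene spermatocytes, 7 of 22 in control SSCs and 0 of 69 in pre-leptotene spermatocytes. Rabbit added a shortened form in which a run of A follows base 17 of the mature sequence.
rabbit day 10, 50 reads: tagcagcgggaacagtaAAAA
Forms with at least 2 added A bases that start before the end of the mature sequence were counted among reads with the first 15 nt of miR-503-5p. They were chosen after they were seen. They made up 6.99% of reads at day 10 (223 of 3189), 9.05% at day 60, 16.1% at day 110 (61 of 378) and 8.65% at day 180 of rabbit. Pig held 12.8% (11 of 86) and mouse zygotene spermatocytes 4.28% (14 of 327). Leptotene spermatocytes held 11.1% of 36 reads (3.11% to 26.1%), and SSCs held 0 of 787 (0% to 0.468%). Of the 14 zygotene reads, 10 were a form of 24 nt that ends in AA, and 4 had the run after base 17. The median over entries was at most 0.0590% in every rabbit library, and 4 other entries at day 10 had a share as high. miR-351-5p, counted in the same way, also had such forms. They were 1.63% of its reads in SSCs (31 of 1902), 3.29% in zygotene spermatocytes (150 of 4563) and 5.73% in rat.

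Set among the miRNAs with its seed, miR-322-5p was a small part in mouse and the largest in rabbit. Its share of the miR-15 and miR-16 seed reads was 2.88% in SSCs and 2.07% in zygotene spermatocytes, against 0.362% and 0.268% in the day 9 libraries, 0.167% in pachytene spermatocytes and 0.0427% in round spermatids. miR-16-5p or miR-15b-5p led that group in every mouse library. In rabbit testis miR-322-5p was the leading entry at each age, with 82.5% at day 10 and 40.4% at day 180, where the seed group as a whole stood at 4783 and 4105 rpm. In rat it was 4.19% and in pig 12.6%.

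miR-351-5p made up 6.01% of the miR-125 seed reads in SSCs, 11.0% and 10.3% in the day 9 libraries, 25.99% in zygotene spermatocytes and 0.781% in mature sperm. miR-125b-5p or miR-125a-5p was larger in all of these. In the rabbit and pig libraries at most 5 reads each matched miR-351-5p, or 0.0148% or less of that seed's reads. Whether a diverged form is present there was not tested.

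In rabbit testis miR-322-5p was far more abundant per matched miRNA read than in the mouse germ cells, and lower at the 2 oldest ages. miR-322-5p stood at 3945 rpm at day 10, then 4406, 3936, 3658, 4361, 4202, 1823 and 1657 rpm at days 30, 60, 70, 80, 90, 110 and 180. It stayed within 3658 to 4406 rpm up to day 90 and lay at 1657 and 1823 rpm after it. miR-503-5p stood at 599, 717, 566, 352, 343, 390.4, 139 and 199 rpm at the same ages. The values at days 70 to 90 lay below those of days 10 to 60, and those of days 110 and 180 lay lower again. The miR-503-5p levels and the age test below leave out reads that share its first 15 nt but not its first 18 nt. At day 10, 3189 reads had the first 15 nt and 2410 entered the level. The counts were 378 and 187 at day 110, and 185 and 134 at day 180. The part left out thus differed by age, and the relation with age including such reads was not tested. In bulk testis fewer cells of a type and less RNA per cell cannot be told apart.

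The question the rabbit series puts is whether a level follows age. It was tested by Spearman's rank correlation over the 8 libraries, with an exact two-sided permutation p adjusted by Benjamini-Hochberg over all 267 entries with at least 100 reads. Of these, 12.4% fell and 13.1% rose with age at an adjusted p under 0.05. miR-503-5p fell (rho −0.881, exact permutation p = 0.00724, adjusted p = 0.0328). Its Pearson r of log2 level with age was −0.81 (exact permutation p = 0.0124, adjusted p = 0.0424), and −0.91 without days 10 and 180. Without any 1 of days 10, 30, 60, 80, 110 or 180 its adjusted p was 0.0506 to 0.108 by the same exact test, so the call needs nearly all 8 libraries. The members were chosen with their levels known, and adjusting over all entries does not correct for that. The p-values of members are thus no independent support for a fall with age.

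For miR-322-5p the rank correlation did not pass (rho −0.571, exact permutation p = 0.151, adjusted p = 0.255). Its Pearson r was −0.80 (exact permutation p = 0.0121, adjusted p = 0.0424), and −0.67 without days 10 and 180, where the relation no longer passed (exact permutation p = 0.215). With all reads as the base its rho was −0.952 (exact permutation, adjusted p = 0.00586), where 55.4% of the 267 entries fell and 2.25% rose by the same exact test. Between day 10 and day 180 the log2 change was −1.25 for miR-322-5p (−1.34 to −1.16) and −1.59 for miR-503-5p (−1.85 to −1.34) per miRNA reads, and −4.18 and −4.52 per all reads.

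Of the partners, miR-542-3p, at 1885 rpm at day 10 and 775 rpm at day 180, fell with age (rho −0.905, exact permutation p = 0.00456, adjusted p = 0.0265). Without any 1 of days 10, 30, 60, 110 or 180 its adjusted p was 0.0610 to 0.108 by the exact test. miR-450a-5p was the most abundant of the cluster at each age, from 11325 rpm at day 30 to 3289 rpm at day 180, and did not pass (rho −0.429, exact permutation, adjusted p = 0.434). miR-450a-1-3p and miR-450b-3p, which share their first 18 nt, stood at 49.2 rpm at day 10 and 26.7 rpm at day 180 and did not pass either (rho −0.548, exact permutation, adjusted p = 0.275). Both entries passed with all reads as the base (exact permutation, adjusted p = 0.0167 and 0.00774), and the latter also with reads equal in full to the reference (rho −0.905, exact permutation, adjusted p = 0.0319).

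Other measures changed over the same ages. Reads of miRNA entries fell from 53.3% of the library at day 10 to 35.6% at day 90, 10.16% at day 110 and 7.02% at day 180. The 2 countable late germ cell markers went from 21.9 rpm at day 10 to 184 at day 90, 7034 at day 110 and 9791 at day 180. Sertoli or gonadal markers went from 4628 rpm at day 10 to 20985 at day 70 and 12487 at day 180. All of these reads were miR-202-5p, since miR-202-3p was at 0 by its mouse sequence. Whether a diverged form of miR-202-3p is present was not tested. The summed stromal markers ranged from 84880 to 154826 rpm, the highest at day 10, most of it miR-10b-5p (rho 0.214, exact permutation, adjusted p = 0.719). The other 3 fell with age, miR-199a-5p from 19773 to 5247 rpm (rho −1.0, exact permutation, adjusted p = 0.00442), miR-214-3p (rho −0.976, exact permutation, adjusted p = 0.00883) and miR-199a-3p, counted with miR-199b-3p (rho −0.929, exact permutation, adjusted p = 0.0186). miR-126a-3p, the 1 countable endothelial marker, ranged from 1862 to 6559 rpm. Blood markers ranged from 116 to 568 rpm and epithelial markers from 219 to 8173 rpm, both highest at day 180. Their part in the age changes was not tested.

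**Figure D5:**
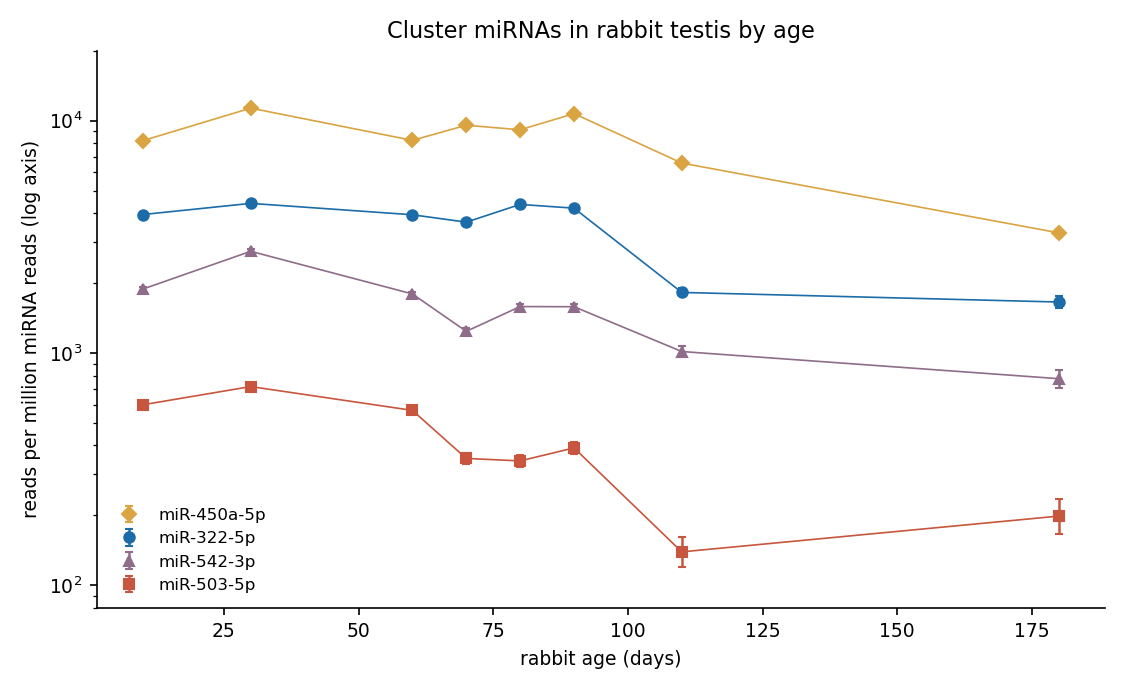
Level in rpm (log axis) of miR-322-5p, miR-503-5p, miR-542-3p and miR-450a-5p against rabbit age in days, 1 library per age, with 95% Poisson intervals mostly smaller than the points. miR-322-5p is flat up to day 90 (4202 rpm) and lower at day 110 (1823 rpm), and miR-450a-5p lies above it at each age.

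Rabbit and pig reads of miR-322-5p differ from the mouse sequence near the 3′ end. The commonest read in both was the following one, with the seed in capitals.
rabbit day 10 (6338 reads) and pig (281 reads): cAGCAGCAattcatgttttgaat
Counted from 1 at the 5′ end of mouse miR-322-5p, both carry G21A, and the rat read carries no substitution. Since the first 18 nt are equal in all 4 species, this base does not enter the count.

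The adult rat and pig testes, at 1 library each, differed in which cluster miRNAs were seen. In rat miR-322-5p stood at 529 rpm, miR-322-3p at 697, miR-503-5p at 72.1 and miR-351-5p at 1729.7 rpm. Per 1000000 hairpin reads, a base added after the data were seen, rat and zygotene spermatocytes overlapped for miR-351-5p (939 and 882.8), and miR-322-3p was lower in rat (378, 324 to 439) than in zygotene spermatocytes (478, 459 to 497). Counted at the reference start, miR-351-5p was thus the leading member in rat as in the mouse stages. In pig miR-322-5p stood at 499 rpm and miR-503-5p at 56.4 rpm, while miR-351-5p had 1 read and miR-322-3p none at its reference start. miR-450a-5p was the largest entry of the cluster in both, with 2667 rpm in rat and 608 rpm in pig.

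Across the 20 libraries the order of miR-322-5p ran from the 8 rabbit ages (1657 to 4406 rpm) through rat and pig to SSCs, zygotene and control SSCs and then to leptotene spermatocytes, the lowest. Rat and pig overlapped in rpm, and per hairpin reads pig stood above rat (431 against 287). For miR-503-5p the 6 rabbit ages up to day 90 came first, and from there down to the control SSCs each neighbour's interval overlapped the next. For miR-351-5p rat and zygotene spermatocytes came first, and rabbit and pig last. Mouse libraries here are purified or cultured cells and the others whole testis, so species and cell makeup cannot be told apart between them. Over the 10 mouse libraries the entries most like miR-322-5p, by Pearson r of log2(rpm + 1) among 361 entries, were miR-322-3p (0.88), miR-181b-5p (0.83), miR-431-5p (0.80), miR-181a-1-3p (0.80) and miR-485-3p (0.78). The median r over the 361 was 0.46. Among the cluster, miR-450a-5p came 13th (0.74), miR-503-5p 15th (0.73) and miR-351-5p 20th (0.71). The 10 libraries differ in depth and stage, and the part of these differences in the r values was not tested.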

How the data were processed

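Each deposited file gives the distinct sequences of 1 library, each with its raw count of reads, from Illumina small RNA libraries of TRIzol-extracted RNA per the labels' protocols. Reads run from 17 to 41 nt (51 nt in pig). Per the submitters' processing notes Bowtie and the builds mm10/GRCm38, OryCun2.0, rn6/Rnor_6.0 and susScr3/Sscrofa10.2 were used, without roles, and trimming steps are not given in the sources used here. The spike-in was not used.

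Reads were matched as sequences to the 1738 mature mouse miRNAs of the RefSeq table (1660 entries), of which 897 were seen. Fixed markers outside the table, such as miR-143-3p and miR-34c-5p, were not analysed here. Entries needed 100 reads in 1 of the libraries compared, counts of 0 entered ratios as 3, and ratios of 2 counts at or under 3, or with a limit against their direction, are left out. Log2 intervals are exact conditional binomial. edgeR 4.0.16 gave the TMM factors, and Python 3.11.15 with scipy 1.17.1 the rest, tested on simulated data.

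The members and lists were chosen with earlier results of these data known. Named are the members, their cluster partners, entries sharing a seed and the 5 entries most like miR-322-5p. Alternatives changed the denominator, the scaling, the match and the low count limit, and left out each rabbit age.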

Additional observations from a re-analysis of the deposited data

Results flagged for a closer look

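1 result moved in opposite directions in the 2 miR-741 knockout lines, with both counting intervals past 0. miR-450a-5p, a partner cut from the downstream end of the cluster, had 68 reads in control SSCs, 8 in the TALEN line and 49 in the CRISPR line, or 145, 31.2 and 249 rpm. Its log2 change was −2.22 in the TALEN line (−3.49 to −1.16) and 0.78 in the CRISPR line (0.22 to 1.33). The difference between the lines was not tested, since each is 1 library and both are set against the same control.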

How the results depend on the processing

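With all reads as the base, the log2 change of the sum of the 4 miRNAs was −0.73 from SSCs to pre-leptotene, −0.50 to leptotene, 2.20 to zygotene, −7.86 to pachytene and 3.19 from round spermatids to mature sperm. Without the miR-506 family in the base it was −0.51 to pre-leptotene, 2.01 to zygotene and −3.95 to pachytene. With TMM factors it was 0.17 to pre-leptotene and 1.92 to zygotene. With reads equal in full to the RefSeq sequence, which drops the 3′ forms described, it was −4.49 to pre-leptotene, 0.39 to leptotene, 2.96 to zygotene, −1.56 to pachytene and −0.13 to mature sperm, where the pachytene value rests on few reads. The rabbit rho of miR-322-5p was −0.952 with all reads (exact permutation, adjusted p = 0.00586), and ranged from −0.714 to −0.357 with each age left out, never past the threshold. That of miR-503-5p missed the threshold with no minimum count (exact permutation, adjusted p = 0.0548). Full matches gave no rabbit trend of miR-322-5p, since too few reads were left. Counting 1 mismatch, run for the mouse stage changes alone, moved none of them beyond its interval. The hairpin base moved no stage or knockout change beyond its interval and no rabbit call across the threshold, but it moved 37 of 80 levels beyond their intervals, as entries cover fewer hairpin reads in some libraries. That base and the count of shifted starts were chosen after seeing the data. No paired analysis was possible because no group has a second library. Depth limits pachytene spermatocytes, round spermatids and the knockout set, where 3 reads equal 9.55, 6.10 and 6.41 to 15.2 rpm.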
